A study of Mus musculus with 2 samples.

Results

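Epithelial cells are held to the basement membrane by laminin-332 and the hemidesmosome, and 8 genes of this attachment were followed in incisor tooth germ: the laminin chains *Lama3* and *Lamb3*, the integrin subunits *Itga6*, *Itgb4* and *Itga3*, the transmembrane collagen *Col17a1*, and the plakins *Dst* and *Plec*. Members were taken by name, as every probe other than a control that the array annotation pairs with one of these genes. The 8 genes have 11 probes, and all 8 had a probe well above background on both arrays. The array reads 21243 genes that carry a RefSeq symbol, and 13802 of them were measured, that is, well above background on both arrays.

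Incisor RNA from wild-type mice, which the study took from the C57BL/6J strain, was compared with incisor RNA from *Sox21* KO mice, with 1 Agilent array (1 colour, Cy3) for each genotype. The labels give the tissue as incisor at postnatal day 0, whereas the methods give tooth germs at postnatal day 1. The title of the series speaks of ameloblasts and its design text of both ameloblasts and tooth germs. The deleted part of *Sox21*, the strain of the KO and the number of mice behind each RNA are not given in the sources used here. With 1 array per genotype no test was possible, and every difference below is a difference between 2 single samples, without a replicate check.

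Each processed signal, an intensity from which the scanner software had removed background, was divided by the 75th percentile of its array. This normalized signal has no unit. The log2 ratio is *Sox21* KO minus wild-type, so that -1 is a 2-fold lower and 1 a 2-fold higher signal. Probes bind their targets with different strength, so levels of different probes were set against each other only to choose which probe and which genes to give. The ± beside a log2 ratio is the error that the scanner software gives for the spots of both arrays, carried over to the ratio. It covers the reading of a spot and not the difference between animals. For comparison, 274 probes spotted repeatedly had a median SD of 0.09 in their log2 ratio.

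*Sox21* itself, the targeted gene, had processed signals of 1362 for wild-type and 659 for KO at its brighter probe and of 286 and 103 at its dimmer, log2 ratios of -1.09 and -1.51. Both probes were thus still well above background on the KO array. The study describes a reporter mouse with GFP inserted at the *Sox21* locus and cites the same source for its KO mice. It does not say which part of the gene was removed. Since the deleted part is not known here, it cannot be said whether these probes lie inside it, and they are no check of the label. KO below means the sample so labelled. Markers of the labelled tissue were present on both arrays, with 7 of 7 ameloblast, 7 of 7 epithelial and 6 of 6 mesenchyme and odontoblast genes measured. Markers of skeletal muscle (5 of 5) and endothelium (4 of 4) were measured as well, so the samples hold more than the enamel epithelium.

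Laminin-332 takes its alpha chain from *Lama3* and its beta chain from *Lamb3*. It is secreted by epithelial cells and bound by the integrins that contain the subunits *Itga6* with *Itgb4*, and *Itga3* with *Itgb1*. In the hemidesmosome, *Itga6* and *Itgb4* join with *Col17a1* at the membrane, and *Dst* and *Plec* tie this complex to keratin filaments. Inherited loss of laminin-332, of this integrin or of collagen XVII causes junctional blistering of the skin, and defective enamel belongs to the same disease.

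The chains of laminin-332 were the members that differed most between the arrays. *Lama3* has 2 probes on chromosome 18 (mm9), near the 3′ end of the transcript that the array annotation gives for them. This is 1 of the 2 curated RefSeq transcripts of *Lama3*, and whether the probes also read the other was not tested. The brighter (12741458 to 12741517) had a normalized signal of 38.8 in wild-type and 16.5 in KO incisor. The dimmer (12741067 to 12741126) had 22.3 and 8.23. Both *Lama3* probes were thus lower on the KO array, with log2 ratios of -1.23 ± 0.20 and -1.44 ± 0.20, or 2.35-fold and 2.71-fold lower. The probes differed by 0.21, which is within the scanner error of 0.29 for this difference. In bulk tissue, fewer cells of a type and less RNA per cell cannot be told apart.

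*Lamb3* has 1 probe, on chromosome 1 (195170009 to 195170068, mm9), with normalized signals of 70.1 for wild-type and 33.4 for KO. The array annotation pairs this probe with 1 of the 2 curated RefSeq transcripts of *Lamb3*. The same holds for *Itga6* and *Col17a1* below, and the *Itga3* probe is paired with 1 of 3. The log2 ratio of *Lamb3* was -1.07 ± 0.20, a 2.10-fold lower signal on the KO array. The log2 ratios of *Lamb3* and the brighter *Lama3* probe differed by 0.16, within the scanner error of 0.29. The study lists *Lama3* and *Lamb3* among its downregulated genes on the basis of these arrays, so their direction here is no independent evidence.

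The probe of *Lamb3* holds the hexamer that precedes polyadenylation, as does that of *Itgb4*, whose ratio differed from it. Shown are 30 bases of each probe, with this hexamer, AATAAA, in capitals, as the array annotation places them on mm9 (*Lamb3* at chr1:195170015-195170044, plus strand, and *Itgb4* at chr11:115869691-115869720, plus strand).
Lamb3: aacacaaaacccAATAAAaatctttgaata
Itgb4: tgttctgcacttAATAAAaggttttgctac
These letters show that the lower *Lamb3* signal and the nearly equal *Itgb4* signals come from probes that share this feature. The brighter *Lama3* probe holds the hexamer too, and the dimmer *Lama3* probe does not.

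**Figure D1:**
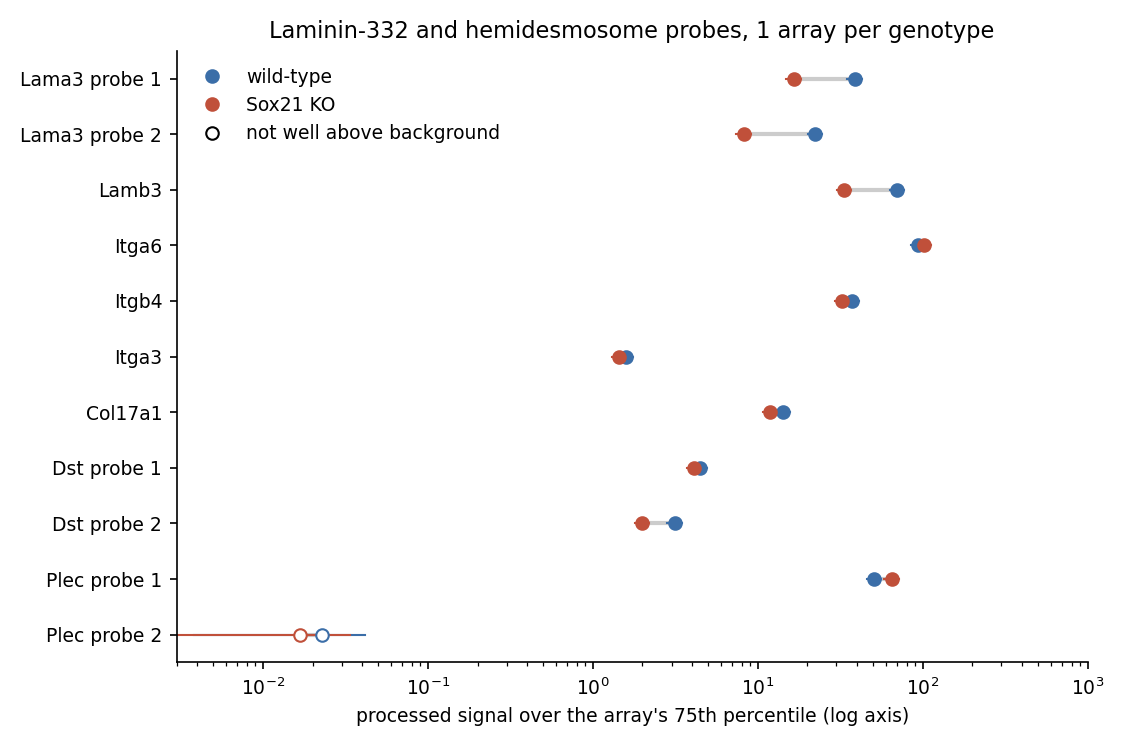
Processed signal over the 75th percentile of the array (log axis) for every probe of the 8 genes, on the wild-type array (blue) and the *Sox21* KO array (red), with horizontal bars for the scanner error of each spot. Open symbols mark the *Plec* probe that was not well above background, whose bars run off the axis at the left. The pairs of points stand apart for *Lama3*, *Lamb3* and the dimmer *Dst* probe, at most 2.71-fold, and are close together or touching for the other probes.

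The receptors of laminin-332 differed less. *Itga6*, the alpha subunit of the hemidesmosome integrin, had normalized signals of 93.8 for wild-type and 102.3 for KO (chromosome 2, 71694756 to 71694815, mm9). The log2 ratio of *Itga6* was 0.13 ± 0.20, smaller than its scanner error. *Itgb4*, the partner of *Itga6*, had 37.4 and 32.6 (chromosome 11, 115869666 to 115869725, mm9). Its log2 ratio was -0.20 ± 0.20, about the size of its error. *Itga6* and *Itgb4* thus went opposite ways by small amounts, and the difference between their log2 ratios was 0.33 against a scanner error of 0.29.

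*Itga3*, which pairs with *Itgb1* in a laminin-332 receptor outside the hemidesmosome, had normalized signals of 1.58 and 1.44 (chromosome 11, 94906334 to 94906393, mm9), a log2 ratio of -0.13 ± 0.21. *Itgb1* had a log2 ratio of 0.15 at its brighter probe and 0.38 at the other. *Cd151*, a tetraspanin that binds laminin-receptor integrins, had 42.7 and 37.0 at its brighter probe, a log2 ratio of -0.21, and -0.08 at the dimmer. None of these receptor genes (0 genes) was 2-fold apart. Set against the *Lamb3* ratio, the ratios of *Itgb4*, *Itga3* and *Itga6* were higher by 0.87, 0.94 and 1.20, about 3 or more times the scanner error of 0.29 for each difference.

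*Col17a1* encodes the collagen that spans the membrane in the hemidesmosome and reaches laminin-332 outside the cell. It gave 14.3 in wild-type and 11.9 in KO incisor (chromosome 19, 47720894 to 47720953, mm9). The log2 ratio was -0.26 ± 0.20, the lowest among the 6 members that are no laminin chain when the brightest probe of each gene is taken.

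*Dst* encodes several proteins, of which the epithelial form, BPAG1e, is the one found in hemidesmosomes. The array annotation pairs both *Dst* probes with the transcript variants called a and b, which cover 2 of the 4 curated RefSeq transcripts of the gene. These names are generally used for neuronal and muscle forms, but no file used here says which transcript is the epithelial form, so the ratios may not describe it. The brighter probe lies at the 3′ end of these variants on chromosome 1 (34364644 to 34364703, mm9), with normalized signals of 4.50 and 4.13. The dimmer lies near their 5′ end, with 3.14 for wild-type and 1.99 for KO. The log2 ratios were -0.12 ± 0.20 and -0.66 ± 0.20, and the probes differed by 0.54 against a scanner error of 0.29. The ratio for *Dst* therefore depends on the probe, and the dimmer one was 1.58-fold lower on the KO array.

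The dimmer *Dst* probe joins 2 exons, since its 60 bases span 2053 bases of the genome (chr1:34209337-34211389, mm9, plus strand), and it is shown whole for that reason.
Dst: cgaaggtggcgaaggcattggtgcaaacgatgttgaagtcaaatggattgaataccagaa
The brighter *Dst* probe lies within 60 consecutive bases of the genome and reads another part of the transcript.

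*Plec*, the plakin that binds *Itgb4* and keratins, went the other way. At the probe near the 3′ end (chromosome 15, 76001454 to 76001513, mm9), it gave 50.9 in wild-type and 65.0 in KO incisor. The log2 ratio was 0.35 ± 0.20, a 1.28-fold higher signal and the highest among the 8 genes. The other *Plec* probe, designed on a partial transcript with alternative first exons, had processed signals of 6.09 and 4.65, not well above background on either array, and no ratio is given for it. The array annotation pairs the brighter probe with 4 of the 15 curated RefSeq transcripts of *Plec*, so the form of hemidesmosomes was not read separately. *Krt5* and *Krt14*, the keratins of basal epithelial cells to which these plakins attach, had log2 ratios of 0.25 at the brighter *Krt5* probe, 0.59 at the dimmer, and 0.18 for *Krt14*. *Krt15*, another basal keratin, went from 12.1 to 39.4, a log2 ratio of 1.70, and was the only one of 4 basal keratinocyte markers at least 2-fold apart. All 4 were higher on the KO array, with a median of 0.23, the other marker being *Trp63* at 0.22, whose probes disagreed, down to -0.68.

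Of the 8 genes, 2 were at least 2-fold lower on the KO array, *Lama3* and *Lamb3*, and 0 were at least 2-fold higher. Across all measured genes, 0.681% were at least 2-fold lower and 0.739% at least 2-fold higher. The same 2 members were the ones at least 1.5-fold lower, where 2.99% of all measured genes were. Dim probes vary more, and among the 5267 genes with a mean processed signal of at least 1000, a limit chosen after the values were seen, 0.361% were at least 2-fold lower. Ranked from the lowest log2 ratio, *Lama3* was gene 50 and *Lamb3* gene 73 of 13802. The median log2 ratio was -0.17 over the 8 genes and 0.01 over all measured genes. Counted by probe, 8 of the 10 measured member probes were lower on the KO array, and 4 were further from 0 than 2 scanner errors, those of *Lama3* and *Lamb3* and the dimmer probe of *Dst*, all lower. Of 18100 measured probes of all genes, 10.8% were as far from 0 in either direction and 5.3% were so on the lower side. Under the median shift *Lamb3* had -0.97, so that 1 member was at least 2-fold lower.

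**Figure D2:**
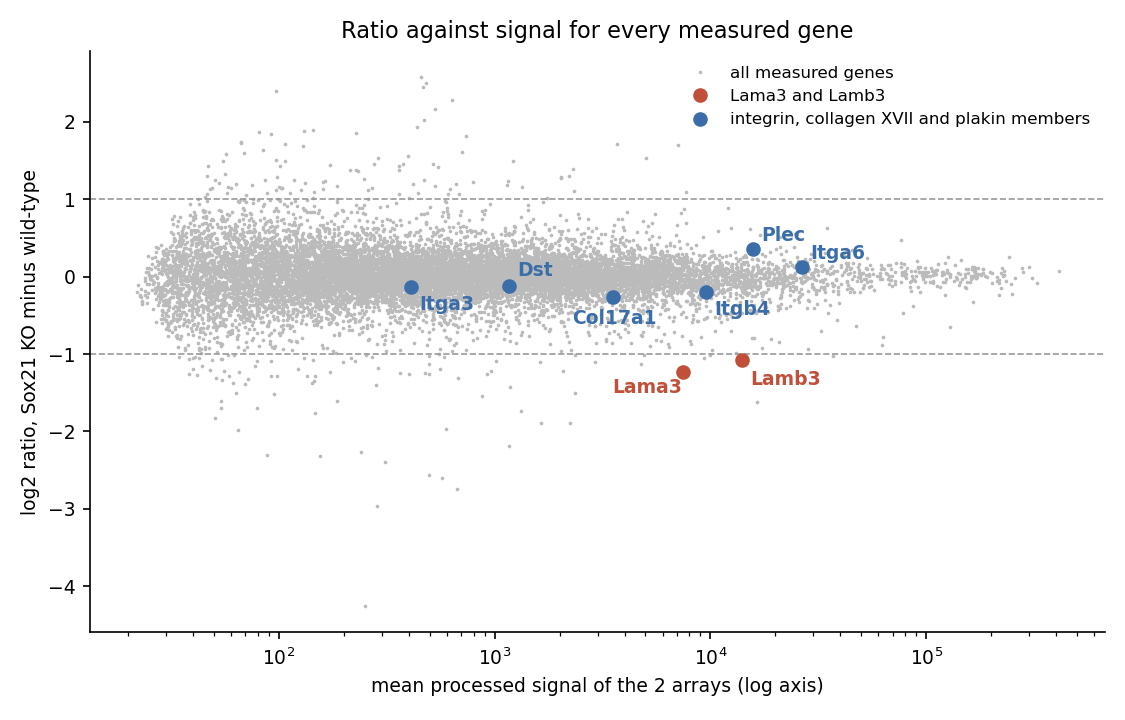
Log2 ratio (*Sox21* KO minus wild-type) against the mean processed signal of the 2 arrays (log axis) for every measured gene (grey), with *Lama3* and *Lamb3* in red and the other 6 members in blue. Dashed lines mark 2-fold. *Lama3* and *Lamb3* lie below the main cloud at bright signals, at -1.23 and -1.07, and the other members lie between -0.26 and 0.35.

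The other laminin chains, which form the laminins of other basement membranes, were set beside those of laminin-332. In this bulk tissue the cells that make each chain were not told apart. A list of 8 laminin chain genes outside laminin-332 was measured in full. All 8 had a log2 ratio above 0, between 0.03 for *Lama2* and 0.20 for *Lama5*, and their median was 0.15. *Lamb1*, the beta chain of most embryonic laminins, went from 46.1 to 52.9, a log2 ratio of 0.20. *Lamc1*, the gamma chain found in most laminins, had 0.06, and *Lama5*, the alpha chain of many epithelial basement membranes, went from 25.5 to 29.3. These 8 values are small, none above the 0.20 that the scanner error came to at the members, and under quantile normalization 7 of the 8 were above 0. The gap between *Lamb3* and the lowest of these chains was 1.10 on the log2 scale, and it was between 1.04 and 1.13 under the alternative settings.

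Among 22 other integrin genes, 19 were measured, of which 14 had a higher and 5 a lower signal on the KO array, with 13 to 16 higher under another scaling or background correction. Their log2 ratios ran from -0.83 to 0.84 with a median of 0.11, and 0 genes were 2-fold apart in either direction. The lowest was *Itgal*, dim at a mean processed signal of 47, whose other measured probe had 0.12. Its ratio was -0.39 at its highest under another scaling or background correction. The brightest were *Itgb5* at -0.04, *Itgam* at -0.46 and *Itga11* at 0.03. The probes of *Itgam*, a leukocyte integrin, disagreed, with 0.09 at the dimmer. *Itgb6*, an epithelial subunit that ameloblasts use and whose loss disturbs enamel, was singled out after its values were seen. It had log2 ratios of -0.77 and -0.71 at its 2 probes, and the normalized signal at the brighter went from 6.75 to 3.96.

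Other basement membrane genes were mostly higher on the KO array, 13 of the 17 measured, and 12 to 14 under another scaling or background correction. The other 4 were lower, and the list had its median at a log2 ratio of 0.24. *Sparc*, *Agrn* and *Col7a1* were the brightest of this list. *Col7a1*, the collagen of the anchoring fibrils beneath the hemidesmosome, went from 28.0 to 40.0, a log2 ratio of 0.51. *Sparc*, a matrix protein that binds collagen, had 0.13, and *Agrn*, a heparan sulphate proteoglycan, had 0.09 at its brighter and 0.43 at its dimmer probe. At least 2-fold higher was 1 gene, *Col4a6*, a collagen IV chain, at 1.90, but its 2 probes disagreed, the dimmer having 0.17, and the value was 1.11 at its lowest under another scaling or background correction.

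**Figure D3:**
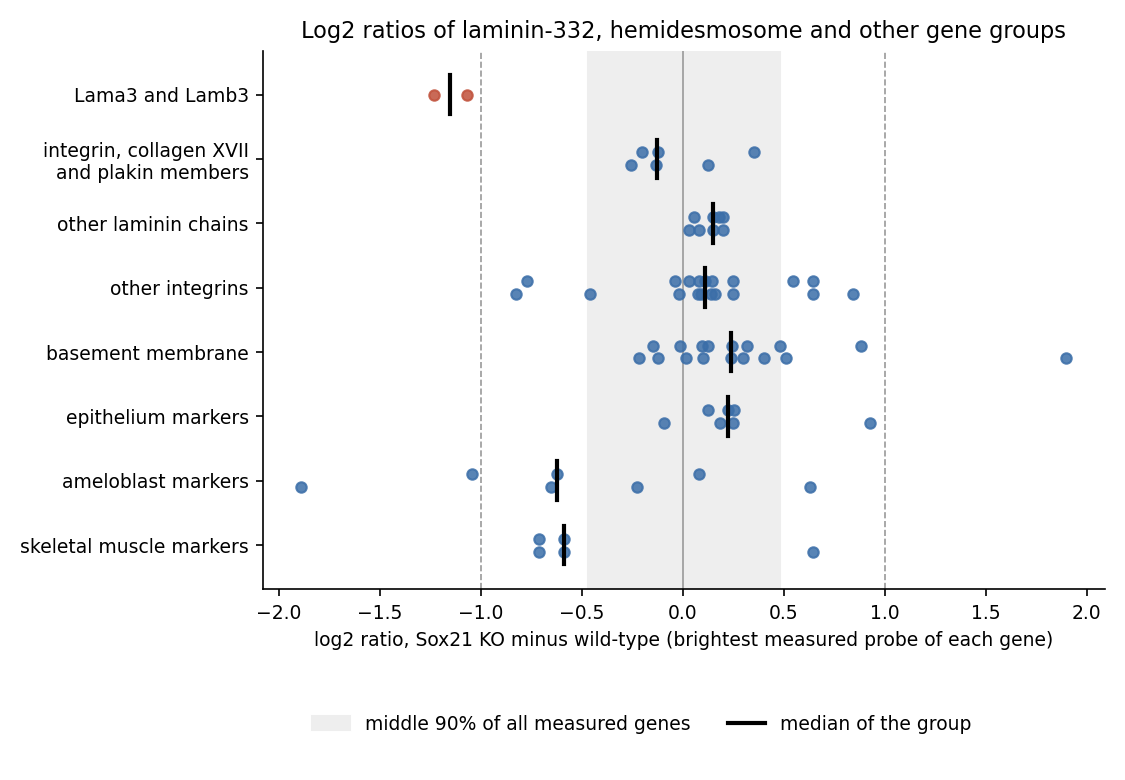
Log2 ratio (*Sox21* KO minus wild-type) of each measured gene, by group, at its brightest measured probe, with a black bar for the median of the group. The grey band holds the middle 90% of all measured genes, from -0.47 to 0.48, and dashed lines mark 2-fold. *Lama3* and *Lamb3* lie left of the band, whereas the other 6 members and the 8 laminin chains outside laminin-332 lie inside it.

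Cell type markers moved between the arrays as well. The epithelial markers, among them *Krt5*, *Krt14*, *Trp63* and *Cdh1*, had a median log2 ratio of 0.22, with 6 of 7 higher and values from -0.09 to 0.92. Ameloblast markers had a median of -0.62, with 5 of 7 lower. *Klk4*, an enamel protease, had -1.05, *Enam*, an enamel matrix protein, had -0.65, and *Amtn*, a basal lamina protein of maturing ameloblasts, had -1.89, whereas *Ambn*, another matrix protein, had -0.23 and *Amelx*, the main enamel matrix protein, had 0.08. *Odam*, which lies with *Amtn* and laminin-332 in the specialized basal lamina between ameloblasts and enamel, had 0.63 and 0.55 at its 2 probes. The basal lamina genes *Amtn* and *Odam* therefore did not share a direction. Skeletal muscle markers, of a tissue that makes its own form of *Dst*, had a median of -0.59, with 4 of 5 lower, among them *Tnnc2* and *Acta1* at -0.59 each. The other, *Myh3*, was higher, with 0.64 and 0.59 at its 2 probes. Schwann cell markers, of cells that also use *Itga6* and *Itgb4*, had -0.05 over 3 measured of 4, with *Erbb3* not well above background on either array. Endothelial markers, of cells that also use *Itga6*, had a median of 0.35 over 4 genes, with 3 higher and values from -0.02 for *Kdr* to 0.64 for *Tek*. Markers of hair and cornified skin were measured in 3 of 6 genes, all higher, with *Krt1* at 1.45, *Lor* at 1.15 and *Krt10* at 0.34. The genes left out did not share a direction. *Krt71* passed the background mark in wild-type alone, with normalized signals of 0.166 for wild-type and 0.062 for KO. *Flg* passed it in KO alone, with 0.089 and 0.459, and *Krt25* passed it in neither. A direction for hair, as apart from cornified skin, cannot be read from these values. The probes of *Krt10* disagreed, the dimmer having 1.84. Mesenchyme and odontoblast markers had a median of 0.25, with 5 of 6 higher, *Col1a2* at 0.26, *Col1a1* at 0.11 and *Dspp* at -0.01. The part of these differences in the ratios of the 8 genes was not tested.

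Each ratio was recomputed under 9 alternative settings of scaling, background correction, probe choice and filter. All 8 members kept their sign under every one of them, though the settings of probe choice could not move members with 1 measured probe. *Lama3* had between -1.44 and -1.13, and *Lamb3* between -1.09 and -0.97. *Itga6* had between 0.10 and 0.22, *Itgb4* between -0.23 and -0.10, and *Plec* between 0.34 and 0.45. The range was widest for *Dst*, from -0.66 at its dimmer probe to -0.03 under the median shift. *Lama3* and *Lamb3* lay below every other member in each setting, with a gap of 0.81 as reported and of 0.41 at its smallest, when the dimmest measured probe of each gene was taken.

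**Figure D4:**
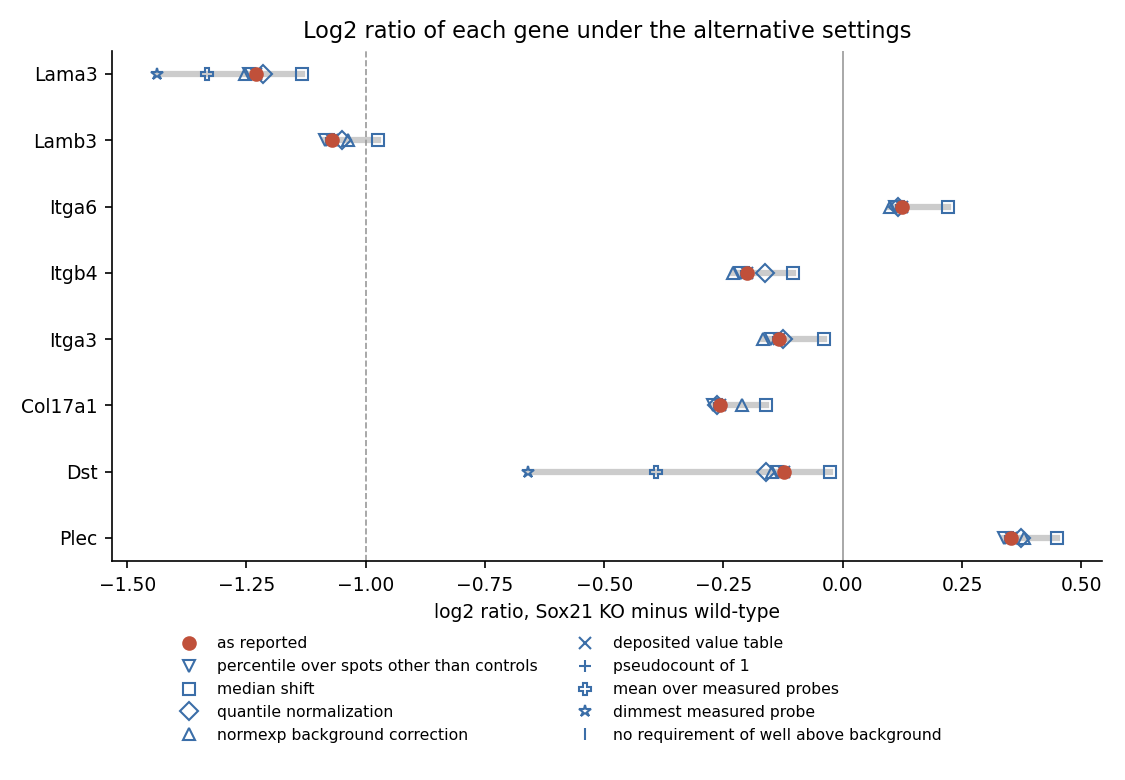
Log2 ratio (*Sox21* KO minus wild-type) of the 8 genes as reported (red) and under 9 alternative settings (blue symbols), with a grey bar for the range. The dashed line marks a 2-fold lower signal and the solid line no difference. *Lama3* stays left of the dashed line in every setting, *Lamb3* crosses it under the median shift alone, and *Dst* has the widest range.

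Promoters were available for 4 of the 8 genes, *Lamb3*, *Itga3*, *Col17a1* and *Dst*, as 7 RefSeq windows (GRCm38.p6) of 300 bases, most of each lying upstream of a transcription start. The AP-1 motif TGACTCA was found in 0 of the 7 windows on either strand, and in 5.2% of all 32851 windows. The Sox core ACAAT was also in 0 of the 7 and in 31.0% of all windows, and its longer form ACAATG, which contains it, in 12.6%. These letters are not in these windows.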

How the data were processed

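RNA of 1 wild-type and 1 *Sox21* KO incisor sample was labelled by the authors and hybridized to Agilent SurePrint G3 Mouse GE arrays of the same design. Per spot, the authors deposited the processed signal, an intensity computed by Agilent Feature Extraction 10.7.3.1, corrected for background and for trends within the array, with its error and the raw intensities of the spot and its background. A deposited value table holds the same signals as a ratio to 1 number per array, 267.8 for wild-type and 275.6 for KO, close to the 75th percentiles of the processed signals. It was used as an alternative. Scaling assumes that most genes are alike on both arrays, and a shift shared by most genes would not be seen.

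Here each processed signal was divided by the 75th percentile over all 62976 spots of its array. Left out were 267 outlier spots, and repeat spots of a probe were averaged on the log2 scale. A gene was measured when a probe passed the well-above-background mark of the software on each array, and took its brightest such probe. The mark held for 49.7% (wild-type) and 50.4% (KO) of the spots other than controls. No spot was saturated (0 on each array). The number of arrays limits the precision. Symbols came from RefSeq genes (GRCm38.p6), through the accession (26294 probes), the symbol (2049) or a former symbol (355), while 26983 probes had no match and do not enter the gene counts. Coordinates are those of the array annotation (mm9). Called means at least 2-fold. The 8 genes were named by the rule above, and from each gene list the genes past 2-fold and the 3 brightest. Marker lists are given by counts, and any marker or other list gene given by name beyond this was chosen after its values were seen. Some genes of the lists are not reported here. Members and lists were chosen with earlier results of these data known. A match of probes to proteins was not analysed here. Alternatives were the percentile over spots other than controls, a median shift, quantile normalization, normexp with an offset of 50, the deposited table, a pseudocount of 1, the mean or the dimmest of a gene's probes, and no background filter. The counting was tested on simulated data. Python 3.11.15, numpy 2.4.6, pandas 2.3.3, matplotlib 3.10.9, R 4.3.3 and limma 3.58.1 were used.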

Additional observations from a re-analysis of the deposited data

How the results depend on the processing

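No paired analysis was possible because each genotype has 1 array, and for the same reason no array could be left out. Of 99 recomputed ratios of the 8 genes, *Cd151*, *Krt5* and *Krt14*, 95 moved by less than the scanner error of 0.20 and 0 changed sign. Part of this count was fixed in advance. Probe choice cannot move a gene with 1 measured probe, and the deposited table holds the same signals over nearly the same divisors. Dropping the background filter changed none of these ratios. The values that moved further came from the choice of probe. The dimmest measured probe gave -1.44 for *Lama3*, -0.66 for *Dst* and 0.59 for *Krt5*, and the mean over measured probes gave -0.39 for *Dst*. Under the median shift, which raised the median of all genes from 0.01 to 0.11, 1 member was at least 2-fold lower in place of 2, since *Lamb3* had -0.97. Relative to that median, the ratios were as before. Over all measured genes, 102 were at least 2-fold higher and 94 lower, and this split was 135 and 66 under the median shift, 46 and 40 under normexp, and 513 and 702 without the background filter. The repeat-spot SD of 0.09 is smaller than this scanner error, and neither covers the spread between animals.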

Other observations

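Genes that act on laminin-332 after its secretion, and plakins outside the hemidesmosome, were listed with the 8 genes but belong to no comparison above. All 5 genes listed for the processing of laminin-332 were measured, 3 higher and 2 lower on the KO array, with 4 higher at most under another scaling or background correction, and 0 were 2-fold apart. *Bmp1*, a protease that processes laminin-332, had a log2 ratio of -0.06 at its brightest probe and up to 0.27 at another, *Mmp2* had 0.38, and *Ctsl*, the brightest of this list, had 0.19. Of the adaptors and other receptors of laminins, 6 of 7 were lower and 1 higher, with values between -0.29 and 0.11, *Tln1* at 0.11 and *Bcam* at -0.19, but up to 3 of the 7 were higher under another scaling or background correction.

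Among 5 other plakins, 3 were higher and 2 lower. *Eppk1*, the gene of epiplakin, was at least 2-fold higher, with log2 ratios of 1.29 and 1.30 at its 2 probes and a normalized signal that went from 4.29 to 10.5. *Dsp*, the desmosomal plakin desmoplakin, had 0.69 and 0.62, and *Evpl* and *Macf1* had -0.19 and -0.11. The study lists *Eppk1* among its upregulated genes on these arrays.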
